A study of Mus musculus with 35 samples.

Results

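The Prame-like genes of the mouse are a family of leucine-rich repeat proteins named after PRAME, which in human cells serves as the substrate receptor of a cullin 2 ubiquitin ligase and is known as a cancer-testis antigen. They were taken here as every protein-coding autosomal gene of GRCm38 whose symbol begins with Prame or with Oog and a digit. That gave 49 of 20665 autosomal protein-coding genes, in 7 clusters whose neighbouring members lay at most 500 kb apart. The histone marks of these genes were followed in female germ cells through culture and in the animal.

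The marks H3K4me3, H3K27me3 and H3K36me3 were mapped by CATCH-seq, in which chromatin of few cells is fragmented with micrococcal nuclease and immunoprecipitated in the presence of carrier DNA. The cultured groups were oogonia-like cells at c7 and oocyte-like cells at c13 and at c34, all of the embryonic stem cell line H18 with Prdm1-mVenus and Dppa3-ECFP reporters, genotype WT. The groups from animals were E18.5 oocytes with the same reporters, genotype WT, and germinal vesicle (GV) oocytes of BDF1 mice, also genotype WT. The series title states that the oocytes in culture formed without ovarian somatic cells, and H18 is a single line, so the cultured stages show that line alone.

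The deposited values were 13 peak lists, 1 per stage and mark, with c7 covered by H3K27me3 alone. A peak in them has a position and no height. Each stage and mark has a single list, so the spread between replicates is unknown and no difference below was tested. H3K4me3 covered 10.3% of the autosomes at c13, 10.4% at c34, 5.40% in E18.5 oocytes and 25.1% in GV oocytes. H3K27me3 covered between 28.5% and 42.7%, and H3K36me3 between 24.0% and 45.4%. The labels give 1 library each for GV H3K4me3 and GV H3K27me3 and 2 to 4 for the other combinations of stage and mark, without saying which libraries entered a list. All 8 germ cell markers examined, among them Ddx4, Dazl and Sycp3, carried H3K4me3 at all 4 stages with such a list. Of 8 markers of ovarian somatic cells, 6 carried it at c13, 5 at c34, 4 in E18.5 oocytes and 6 in GV oocytes. Foxl2, Amhr2, Wnt4 and Amh were marked in all 4 lists and the aromatase gene Cyp19a1 in none. These counts stand beside 72.6%, 67.8%, 62.1% and 75.5% of all autosomal protein-coding genes in the same order of stages. H3K27me3 marked 6 of the 8 somatic markers at c7, 8 at c13, 6 at c34, 6 in E18.5 oocytes and 4 in GV oocytes. Of the 8 germ cell markers it marked 3, 6, 1, 3 and 1 in the same order. Its shares of all genes were 46.3%, 62.3%, 44.3%, 38.4% and 28.4%. The part of somatic chromatin in the results was not tested.

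As background, H3K4me3 sits at the promoters of active and poised genes, H3K27me3 is written by Polycomb repressive complex 2, and H3K36me3 is laid down along transcribed bodies. Growing mouse oocytes also acquire broad H3K4me3 domains away from promoters, and H3K36me3 steers DNA methylation in the oocyte. Oog1 to Oog4 were named as oogenesis genes because their transcripts are found in oocytes. Pramel7 and Pramel6 are known from mouse embryonic stem cells, where Pramel7 directs the degradation of UHRF1 and so lowers DNA methylation. Pramel13, once called Pramef12, is needed for the upkeep of the male germline.

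The members lay on chromosomes 2, 4, 5 and 12. The large chromosome 4 cluster ran from Pramel1 to Pramel13, at chr4:143394441-144408467, and held 23 members over 1014 kb. The chromosome 5 cluster, Pramel33 to Pramel50, held 18 members over 2254 kb at chr5:93481827-95736173. The smaller clusters were Pramel7 and Pramel6 at chr2:87489088-87510865, among olfactory receptor genes, and Pramel17, Pramel18 and Pramel19 at chr4:101834969-101943183, next to the leptin receptor gene Lepr. Pramel32 stood alone at chr4:88627320-88634186 between the interferon genes Ifna12 and Ifna13. Oog1, at chr12:87602665-87608845, and Pramel51, at chr12:88175589-88181894, each formed a cluster of 1 gene. Members had a median length of 6256 bp in the large chromosome 4 cluster and 15647 bp in the chromosome 5 cluster.

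The promoters below, each 250 bases before to 50 bases after the annotated start, were taken from RefSeq on GRCm38.p6 and are written 5′ to 3′ on the strand of the gene. They are shown because their genes carry the contrast that runs through the results. The first 5 belong to members with an H3K4me3 peak at the gene at c34 and in GV oocytes and in neither c13 nor E18.5, namely Oog1 (plus strand), Oog2 (plus), Oog3 (minus), Pramel26 (minus) and Pramel27 (plus). Pramel1 (plus) and Pramel13 (minus) had H3K4me3 at all 4 stages, and Pramel46 and Pramel49 (both minus) had none of the 3 marks in any list. Capitals mark CANNTG, the E-box read by basic helix-loop-helix factors such as FIGLA, TAATTG and TAATTA, forms read by oocyte homeobox factors such as NOBOX and LHX8, and TATAAA, the TATA box, all on either strand.
Oog1, chr12:87602415-87602714: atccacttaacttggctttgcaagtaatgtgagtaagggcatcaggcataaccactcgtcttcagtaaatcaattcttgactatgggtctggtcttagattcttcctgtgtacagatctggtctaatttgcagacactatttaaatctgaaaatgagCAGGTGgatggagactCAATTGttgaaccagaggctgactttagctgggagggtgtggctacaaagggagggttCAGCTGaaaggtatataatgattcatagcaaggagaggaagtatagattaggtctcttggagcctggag
Oog2, chr4:144190467-144190766: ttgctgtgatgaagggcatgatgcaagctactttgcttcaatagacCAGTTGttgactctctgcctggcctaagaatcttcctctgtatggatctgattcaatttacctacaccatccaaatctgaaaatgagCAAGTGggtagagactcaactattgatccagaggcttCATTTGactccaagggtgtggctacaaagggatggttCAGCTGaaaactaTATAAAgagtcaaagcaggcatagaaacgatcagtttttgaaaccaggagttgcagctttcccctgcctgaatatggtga
Oog3, chr4:144162602-144162901: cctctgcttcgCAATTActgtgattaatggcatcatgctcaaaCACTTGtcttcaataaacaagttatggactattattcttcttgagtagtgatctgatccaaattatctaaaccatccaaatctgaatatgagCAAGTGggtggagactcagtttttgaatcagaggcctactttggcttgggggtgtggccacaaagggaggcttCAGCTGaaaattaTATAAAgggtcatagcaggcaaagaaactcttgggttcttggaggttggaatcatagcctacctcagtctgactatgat
Pramel26, chr4:143816044-143816343: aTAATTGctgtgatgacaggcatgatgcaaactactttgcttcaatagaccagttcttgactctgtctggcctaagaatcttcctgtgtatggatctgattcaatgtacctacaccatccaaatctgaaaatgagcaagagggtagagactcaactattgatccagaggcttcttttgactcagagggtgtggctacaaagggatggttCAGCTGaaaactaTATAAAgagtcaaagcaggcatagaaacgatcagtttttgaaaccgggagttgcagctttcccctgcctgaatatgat
Pramel27, chr4:143846247-143846546: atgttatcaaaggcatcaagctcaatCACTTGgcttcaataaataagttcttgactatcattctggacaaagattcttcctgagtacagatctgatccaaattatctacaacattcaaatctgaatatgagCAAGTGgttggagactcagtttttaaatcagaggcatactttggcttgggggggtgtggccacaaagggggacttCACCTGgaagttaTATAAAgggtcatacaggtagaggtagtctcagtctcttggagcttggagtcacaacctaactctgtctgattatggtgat
Pramel1, chr4:143394191-143394490: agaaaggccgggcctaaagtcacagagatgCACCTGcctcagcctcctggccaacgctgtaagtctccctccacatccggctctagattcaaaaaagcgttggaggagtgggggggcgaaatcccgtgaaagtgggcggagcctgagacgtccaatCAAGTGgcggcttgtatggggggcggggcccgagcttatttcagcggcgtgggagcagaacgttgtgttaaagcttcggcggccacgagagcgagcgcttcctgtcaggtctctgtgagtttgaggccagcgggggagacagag
Pramel13, chr4:144408415-144408714: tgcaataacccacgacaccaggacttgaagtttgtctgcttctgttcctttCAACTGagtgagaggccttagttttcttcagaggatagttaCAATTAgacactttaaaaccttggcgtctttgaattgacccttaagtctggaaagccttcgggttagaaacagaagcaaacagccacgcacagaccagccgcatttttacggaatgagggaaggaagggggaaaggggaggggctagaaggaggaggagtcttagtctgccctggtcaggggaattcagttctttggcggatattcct
Pramel46, chr5:95272706-95273005: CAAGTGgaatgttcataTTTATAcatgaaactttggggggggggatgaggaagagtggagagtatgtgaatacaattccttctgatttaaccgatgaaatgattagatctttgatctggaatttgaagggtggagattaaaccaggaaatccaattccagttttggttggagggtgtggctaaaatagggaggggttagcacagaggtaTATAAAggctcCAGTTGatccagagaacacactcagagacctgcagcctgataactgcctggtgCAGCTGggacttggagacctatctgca
Pramel49, chr5:95594813-95595112: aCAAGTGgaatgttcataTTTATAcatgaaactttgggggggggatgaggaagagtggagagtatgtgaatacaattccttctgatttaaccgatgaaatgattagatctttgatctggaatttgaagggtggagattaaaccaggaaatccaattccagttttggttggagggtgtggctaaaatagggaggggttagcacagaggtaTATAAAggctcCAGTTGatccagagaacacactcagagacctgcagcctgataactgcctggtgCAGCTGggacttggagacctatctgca

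The Oog2 and Pramel26 promoters were 93% identical, with 21 edits over 300 bases, and lie on opposite strands. Oog3 and Pramel27 were 75.7% identical. Oog1, on another chromosome, was 63% identical to Oog2 and 65% to Oog3. The Pramel46 and Pramel49 promoters differed by 2 edits. Pramel1 and Pramel13, at the outer edges of the large cluster, were 46% identical to each other and no more than 48.3% to any other promoter shown. As a scale, pairs of member promoters from different clusters had a median identity of 47.3%, with a range of 41.7% to 83.7%.

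H3K4me3 reached part of the family late. Peaks lay within 1 kb of an annotated end of at least 1 member in 1 of 7 clusters at c13, 6 at c34, 1 in E18.5 oocytes and 7 in GV oocytes. Of the 6 at c34, Pramel32, Oog1 and Pramel51 were clusters of 1 gene. The large chromosome 4 cluster had 11 of 23 members marked at c34, the Pramel17 cluster 1 of 3 and chromosome 5 2 of 18. Among genes, 3 of 49 members were marked at c13 (72.6% of all autosomal protein-coding genes), 17 at c34 (67.8% of all genes), 3 in E18.5 oocytes (62.1%) and 26 in GV oocytes (75.5%). The family share was therefore below that of all genes at every stage, at 6.12%, 34.7%, 6.12% and 53.1%. At c34 against c13, the family gained while the share of all genes was lower, and the lists covered 10.4% and 10.3% of the autosomes. The GV list covered 25.1% of the autosomes, against 5.40% for the E18.5 list, and the part of list length in the GV count was not tested. Members can share a peak, and the marks at members came from 3 distinct peaks at c13, 18 at c34, 3 in E18.5 oocytes and 24 in GV oocytes.

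**Figure D1:**
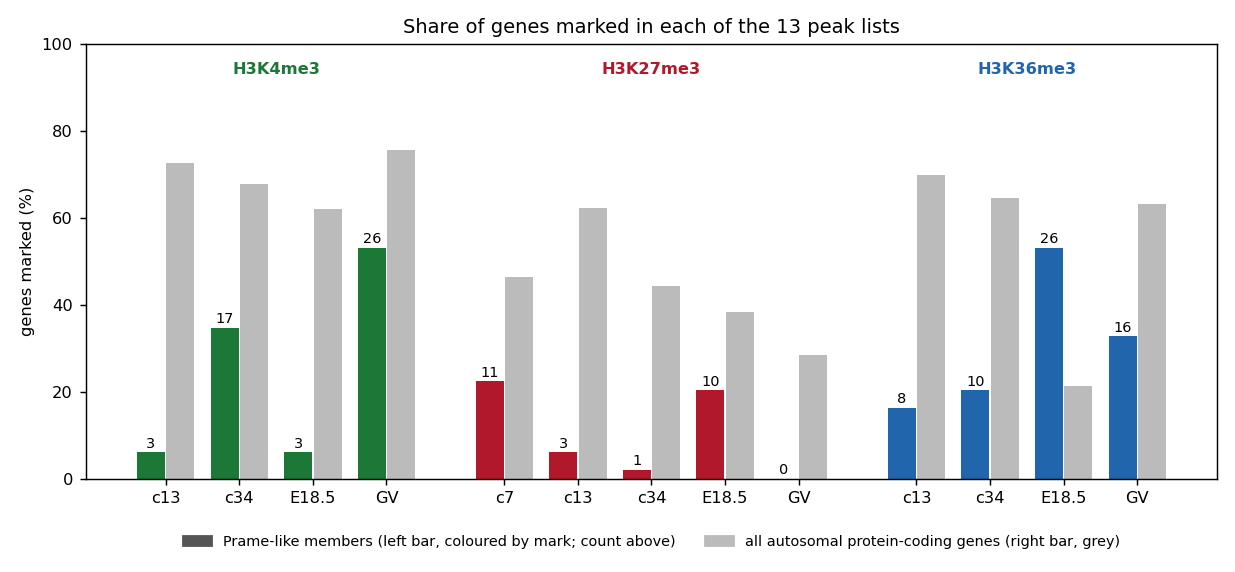
Percentage of genes marked in each of the 13 peak lists, for the 49 Prame-like members (left bars, coloured by mark, with the number of marked members above) and for all 20665 autosomal protein-coding genes (right bars, grey). The H3K4me3 bars of the family stand at 3 members at c13 and in E18.5 oocytes, 17 at c34 and 26 in GV oocytes, and the H3K36me3 bar in E18.5 oocytes is the only one of the 13 family bars above its grey partner.

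The 26 members marked in GV oocytes fell into 3 patterns. Pramel1, Pramel12 and Pramel13 were marked at all 4 stages. A further 14 members in 6 clusters were marked at c34 and in GV oocytes and in neither early list, a pattern of 3.61% of all genes. They were Pramel32, Pramel17, Oog4, Pramel23, Pramel25, Pramel26, Pramel27, Oog3, Oog2, Pramel29, Pramel34, Pramel48, Oog1 and Pramel51. The large chromosome 4 cluster held 8 of the 14, and 6 of 26 members remained in 5 clusters without it. The other 9 were marked in GV oocytes alone. The remaining 23 members had no H3K4me3 at an annotated end in any list.

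No member was marked at c34 and not in GV oocytes (2.80% of all genes), while 9 were marked in GV oocytes and not at c34 (10.5%). Against c13, c34 gained 14 members (4.33%) and lost 0 (9.07%). Against E18.5, GV oocytes gained 23 members (17.1%) and lost 0 (3.69%). The c13 and E18.5 lists marked the same 3 members, with 0 at c13 alone (11.2%) and 0 in E18.5 oocytes alone (0.721%). These pairs share lists, so they are not independent of each other. The shares in brackets are over all genes, marked or not at the stage compared against. In both early lists 46 of 49 members were unmarked, so a larger share of the family than of all genes could gain a mark. Only 3 members could lose one from an early list. The same limit holds for the 3.61% beside the 14 late members. Shares among genes unmarked at the earlier stage were not computed.

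**Figure D2:**
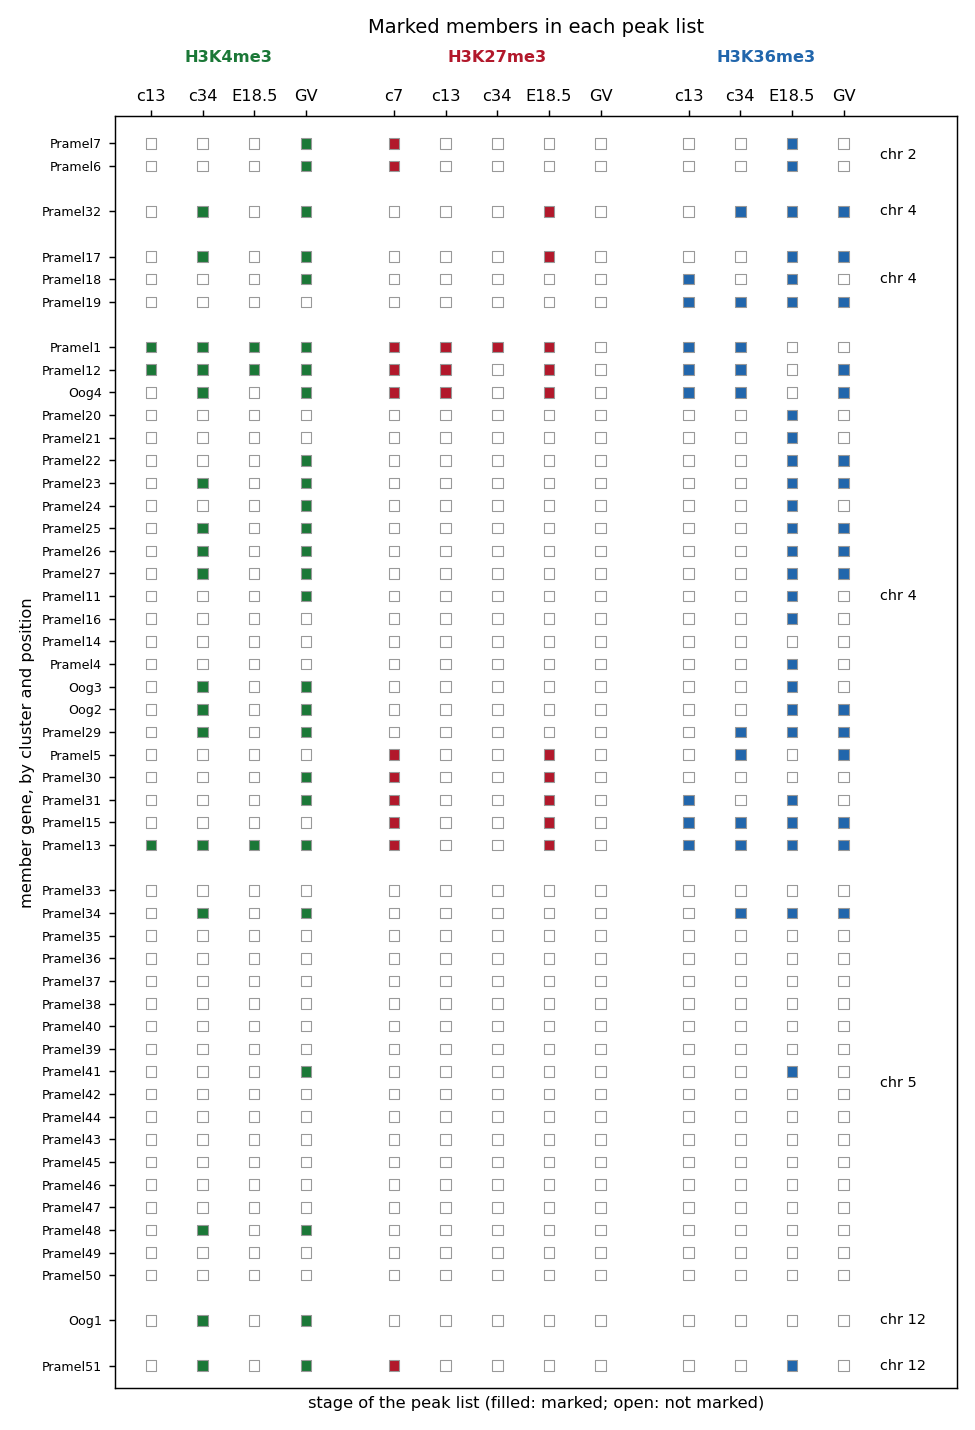
Every member (rows, by cluster and position) in each of the 13 peak lists (columns, by mark and stage), with filled squares for marked genes and open squares for unmarked ones. The 14 members with H3K4me3 at c34 and in GV oocytes alone lie in 6 of 7 clusters, and 15 of the 18 chromosome 5 members are open in every column.

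Among the oogenesis genes, Oog2 had an H3K4me3 peak of 11 kb at c34 and 15 kb in GV oocytes, both over its start. Its nearest peak lay 212 kb from the start at c13 and 213 kb away in E18.5 oocytes. Oog3 had peaks of 8 kb at c34 and 11 kb in GV oocytes over the start, against distances of 240 kb at c13 and 241 kb in E18.5 oocytes. Both genes thus lay far from any peak in the early lists and under one in both late lists.

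Oog4, nearer the edge, carried a peak of 27 kb at c34 and 26 kb in GV oocytes over its start, and early peaks stopped 6.68 kb short of the start at c13 and 8.68 kb short in E18.5 oocytes. Oog1 carried a 4 kb peak over its start at c34. In GV oocytes its peak was 2 kb wide and lay 0.665 kb upstream of the start, so that no base of the gene itself was covered. A c13 peak lay 3.67 kb from the Oog1 start, outside the 1 kb limit, and the nearest E18.5 peak was 125 kb away.

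Pramel1 showed the contrasting, constant pattern. Its end peak was 13 kb wide at c13, 6 kb at c34, 6 kb in E18.5 oocytes and 45 kb in GV oocytes, and each covered the start. The 45 kb peak in GV oocytes also reached Pramel12, whose other end peaks were 8 kb at c13, 3 kb at c34 and 10 kb in E18.5 oocytes. Pramel13, at the opposite edge, had peaks over its start of 9 kb at c13, 15 kb at c34, 6 kb in E18.5 oocytes and 6 kb in GV oocytes. At its far end it also had a peak of 11 kb at c34 and of 12 kb in GV oocytes. All 3 lie near the outer edges of the large cluster, which borders Lrrc38 on one side and 1700012P22Rik on the other.

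Pramel7 and Pramel6 were unmarked at c34 and lay whole inside a single 84 kb peak in GV oocytes. The nearest c34 peak ended 4.14 kb from this cluster, the c13 peak 15.1 kb and the E18.5 peak 1243 kb away. Pramel24, Pramel11, Pramel30 and Pramel31, also marked in GV oocytes alone, lay in or at peaks of 36, 32, 20 and 35 kb. The remaining members of this pattern, Pramel22, Pramel18 and Pramel41, had narrower GV peaks of 6, 12 and 8 kb.

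The strand was known for 40 members, and each of them with an H3K4me3 peak at an end in a late list had one at its start. Pramel1 and Pramel13, which were also marked in both early lists, are among them. The same counts and distances over all genes were not computed, so they give no contrast between the family and other genes. At c34, 13 of these members had a peak within 1 kb of the start alone, 1 of both ends and 0 of the far end alone. In GV oocytes the numbers were 13 at the start alone, 8 at both ends and 0 at the far end alone. The start itself lay inside a peak for 2 members at c13, 14 at c34, 2 in E18.5 oocytes and 19 in GV oocytes. The median distance between a start and the nearest H3K4me3 peak was 250 kb at c13, 16.3 kb at c34, 294 kb in E18.5 oocytes and 0.710 kb in GV oocytes.

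The widest peak at either end of the 17 members marked in both late lists had a median width of 8 kb at c34, with a range of 3 to 27 kb, and of 12 kb in GV oocytes, with a range of 2 to 45 kb. That peak was wider at c34 for 6 members and wider in GV oocytes for 11. Over all autosomal peaks the median width was 5 kb at c34 and 11 kb in GV oocytes. Of the length covered in the clusters at c34, 80.0% was also covered in GV oocytes, and of the GV length 26.8% was covered at c34. The GV list was the longer, at 25.1% of the autosomes against 10.4% at c34. The overlap of these lists over all autosomes was not computed.

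By covered length, the large chromosome 4 cluster was under H3K4me3 for 2.07% of its span at c13, 12.9% at c34, 1.97% in E18.5 oocytes and 31.0% in GV oocytes. The chromosome 5 cluster was covered for 0% at c13, 0.532% at c34, 0% in E18.5 oocytes and 6.25% in GV oocytes. Over all 7 clusters the values were 0.615%, 5.02%, 0.586% and 15.0%. All of these were below the autosomal coverage of the same lists except for the large chromosome 4 cluster at c34 and in GV oocytes.

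H3K27me3 touched few members and none in GV oocytes. Members marked were 11 of 49 at c7 (46.3% of all genes), 3 at c13 (62.3%), 1 at c34 (44.3%), 10 in E18.5 oocytes (38.4%) and 0 in GV oocytes (28.4%). They lay in 3 clusters at c7, 1 at c13, 1 at c34 and 3 in E18.5 oocytes. Apart from Pramel51 at c7, each marked member lay whole inside a peak. Members shared such peaks, and the 11 members of c7 and the 10 of E18.5 rested on 4 peaks in each list. Against E18.5, c7 had 3 members to itself (15.1% of all genes) and lacked 2 (7.23%), and the 8 members they shared all lay in the large chromosome 4 cluster.

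Members of the large chromosome 4 cluster were marked by H3K27me3 at its edges only. Peaks of 180 and 560 kb at c7, and of 190 and 720 kb in E18.5 oocytes, covered its first 3 members, Pramel1, Pramel12 and Oog4, and its last 5, Pramel5 to Pramel13. The middle 15 members, Pramel20 to Pramel29, had no H3K27me3 within 1 kb of an end at any of 5 stages. At c13 a 260 kb peak held the first 3 members and the domain over the last 5 was not called. At c34 an 80 kb peak reached Pramel1 alone and a 20 kb peak lay between members, and in GV oocytes the nearest peak ended outside the cluster. The division into first 3, middle 15 and last 5 members was chosen after these values were seen.

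**Figure D3:**
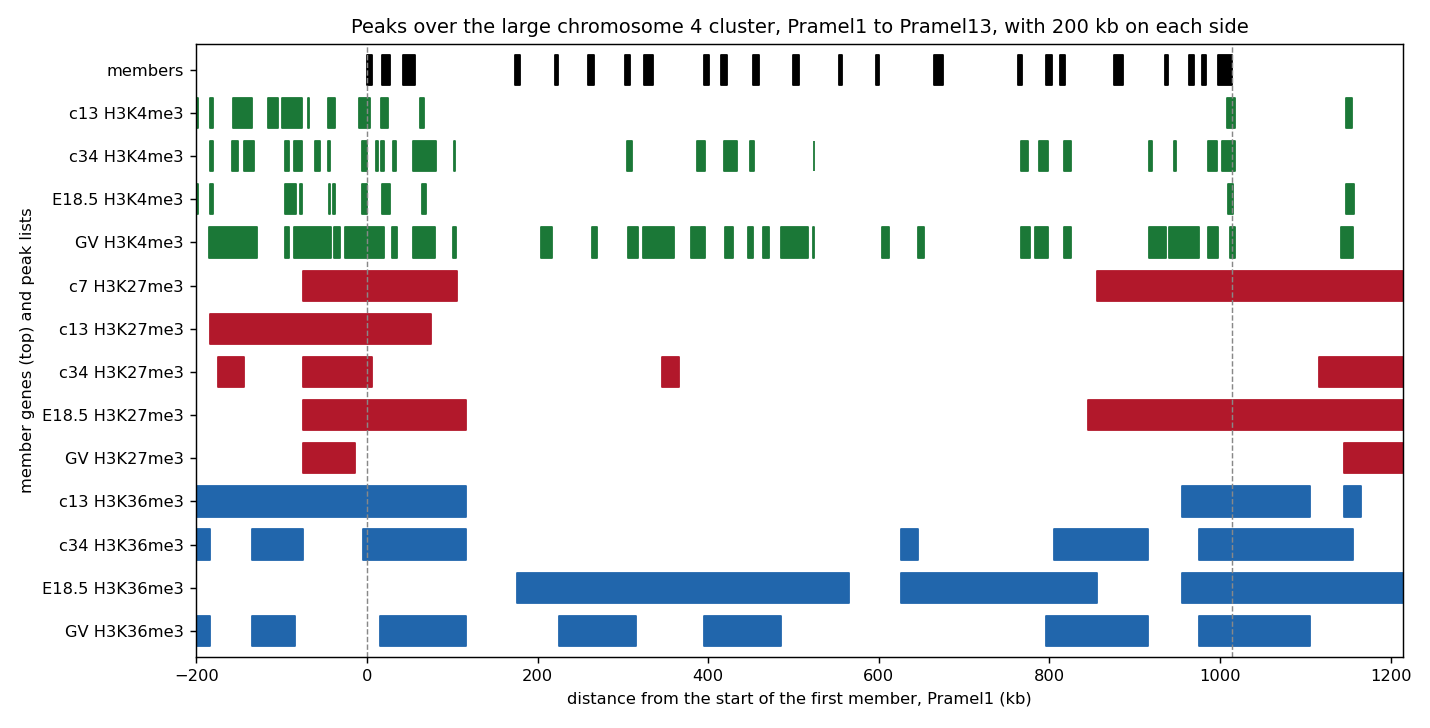
Peaks of the 13 lists over the large chromosome 4 cluster, in kb from the start of Pramel1, with the member genes in black on top and dashed lines at the cluster edges. H3K27me3 (red) covers the edges at c7 and in E18.5 oocytes and reaches none of the middle 15 members in any list, H3K36me3 in E18.5 oocytes (blue) fills much of the middle, and H3K4me3 (green) appears inside the cluster at c34 and in GV oocytes.

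Elsewhere, Pramel7 and Pramel6 lay in a 150 kb H3K27me3 peak at c7 and in none at the later stages. Pramel51 was touched at c7 by the edge of a 1390 kb peak that covered 30.0% of the gene. Pramel32 lay in a 250 kb peak and Pramel17 in a 120 kb peak in E18.5 oocytes alone. Pramel18, Pramel19, Oog1 and all 18 members on chromosome 5 carried no H3K27me3 in any list. Against c7, c13 lost 8 members (8.71% of all genes) and gained 0 (24.6%). Against E18.5, c13 had 0 members to itself (32.3%) and lacked 7 (8.51%). Against c13, c34 gained 0 (7.15%) and lost 2 (25.1%). Pramel1 was the 1 member marked at c34 and not in GV oocytes (18.4%), and 0 were marked the other way (2.42%). Against E18.5, GV oocytes lost 10 members (21.7%) and gained 0 (11.6%). These bracketed shares are over all genes, marked or not at the stage compared against. The family share with H3K27me3 was below that of all genes in every list. A smaller share of the family could thus lose the mark and a larger share could gain it. Shares among genes marked or unmarked at the earlier stage were not computed.

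H3K36me3 covered more members in E18.5 oocytes than in any other list of the mark. At least 20% of the gene body was covered for 8 members at c13 (69.9% of all genes), 10 at c34 (64.5%), 26 in E18.5 oocytes (21.4%) and 16 in GV oocytes (63.1%). Marked members were found in 2 clusters at c13, 4 at c34, 6 in E18.5 oocytes and 4 in GV oocytes. E18.5 was thus the one list of this mark in which the family share, 53.1%, exceeded that of all genes. Of the E18.5 H3K36me3 length, 39.1% lay in protein-coding genes, which make up 40.3% of the autosomes. The same share was 53.6% at c13, 63.9% at c34 and 62.3% in GV oocytes. The part of this list property in the family count was not tested.

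Within the large chromosome 4 cluster, 3 E18.5 peaks of 390, 230 and 470 kb covered 66.9% of the span and 14 of the middle 15 members. The exception was Pramel14. Of these 15, 0 were marked at c13, 1 at c34 and 7 in GV oocytes. Of the first 3 members, 3 were marked at c13, 3 at c34, 0 in E18.5 oocytes and 2 in GV oocytes. The c13 mark on them came from a single peak of 10140 kb that ended inside the cluster. In GV oocytes 5 separate peaks between 90 and 130 kb covered 43.2% of the span, and at c34 4 peaks covered 28.0%.

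The bodies of Oog2, Pramel26 and Pramel27 were covered for 0% at c13, 0% at c34, 100% in E18.5 oocytes and 100% in GV oocytes. Oog3 was covered for 100% in E18.5 oocytes and 0% in the other lists of the mark, and Oog1 for 0% in all 4. Pramel29 was covered for 0% at c13 and 100% at c34, in E18.5 oocytes and in GV oocytes. Pramel32 and Pramel17 were both covered in full in E18.5 oocytes and in GV oocytes, and Pramel32 also at c34. Pramel7 and Pramel6 were covered in full in E18.5 oocytes alone. Pramel19 was the one member of the small clusters covered in full in all 4 lists, and it had no H3K4me3 at an end in any.

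Between late stages, 1 member carried H3K36me3 at c34 and not in GV oocytes (6.47% of all genes) and 7 in GV oocytes and not at c34 (5.04%). Those 7 were Pramel17, Pramel22, Pramel23, Pramel25, Pramel26, Pramel27 and Oog2. Of the c34 length in the clusters, 90.7% lay under GV peaks, and of the GV length 58.7% lay under c34 peaks. The same overlap over all autosomes was not computed. The excess in GV oocytes rested on peaks narrower than the list median: with only peaks at or above that width, c34 held 1 member more. Against E18.5, c13 had 3 members to itself (57.0%) and lacked 21 (8.45%). Against c13, c34 gained 4 (10.7%) and lost 2 (16.0%), and against E18.5, GV oocytes gained 3 (49.6%) and lost 13 (7.92%). These bracketed shares are over all genes, marked or not at the stage compared against. In E18.5 oocytes 53.1% of members and 21.4% of all genes carried the mark, so a larger share of the family could lose it. Shares among genes marked or unmarked at the earlier stage were not computed.

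The 3 marks were then read together at each stage. At c13, 41 members carried none of the 3 marks, a state of 14.2% of all genes. At c34, 29 carried none (10.6%), and 10 carried H3K4me3 alone (3.16%), among them Oog1, Oog2, Oog3, Pramel26 and Pramel27. In E18.5 oocytes, 21 members carried H3K36me3 alone (3.92%). The same stage had 25 of 49 members with H3K36me3 and no H3K4me3 at either end (9.17% of all genes). In GV oocytes 13 members carried H3K4me3 alone (11.1%), 13 carried it with H3K36me3 (47.0%) and 20 carried none (8.08%). Oog2, Pramel26, Pramel27 and Pramel25 belonged to the group with both marks in GV oocytes, and Oog1 and Oog3 to the group with H3K4me3 alone.

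Altogether 16 members carried no mark in any of the 13 lists, against 4.33% of all genes. Of these, 15 lay on chromosome 5, and the other was Pramel14 in the middle of the large chromosome 4 cluster. Only Pramel34, Pramel41 and Pramel48 were marked on chromosome 5. Pramel34 had an 8 kb H3K4me3 peak at c34 and a 38 kb peak in GV oocytes, with H3K36me3 over 86.7% of its body at c34 and 100% in E18.5 oocytes and in GV oocytes. Pramel48 had H3K4me3 peaks of 3 kb at c34 and 10 kb in GV oocytes and nothing else. Pramel41 had an 8 kb H3K4me3 peak in GV oocytes and H3K36me3 over 33.8% of its body in E18.5 oocytes.

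By their best match, the promoters on chromosome 5 are also those most alike. For 12 of its members with a RefSeq promoter, identity to the most similar member had a median of 99%, and 8 of the 12 reached 95%. Of their 50-base windows, a median of 86.8% occurred letter for letter in another promoter of the table. In the large chromosome 4 cluster these medians were 79.3% and 5.20% over 22 members. Over all 66 pairs of the 12 chromosome 5 promoters, the median identity was 46.8%. The 231 pairs of the large chromosome 4 cluster had a median of 47.3%. The higher likeness on chromosome 5 was thus one of best matches, not of the cluster as a whole. Pramel37 and Pramel50 had the same 300 bases. The 1 marked member among the 12, Pramel48, had 36.3% of windows shared, the lowest of the 12. Reads that match several copies may be left out or split before peaks are called, and how they were handled is not given in the sources used here. The part of sequence sharing in the unmarked state of chromosome 5 was not tested. Oog1, with 81.7% of windows shared, was marked in both late lists, in GV oocytes by the peak upstream of its start.

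**Figure D4:**
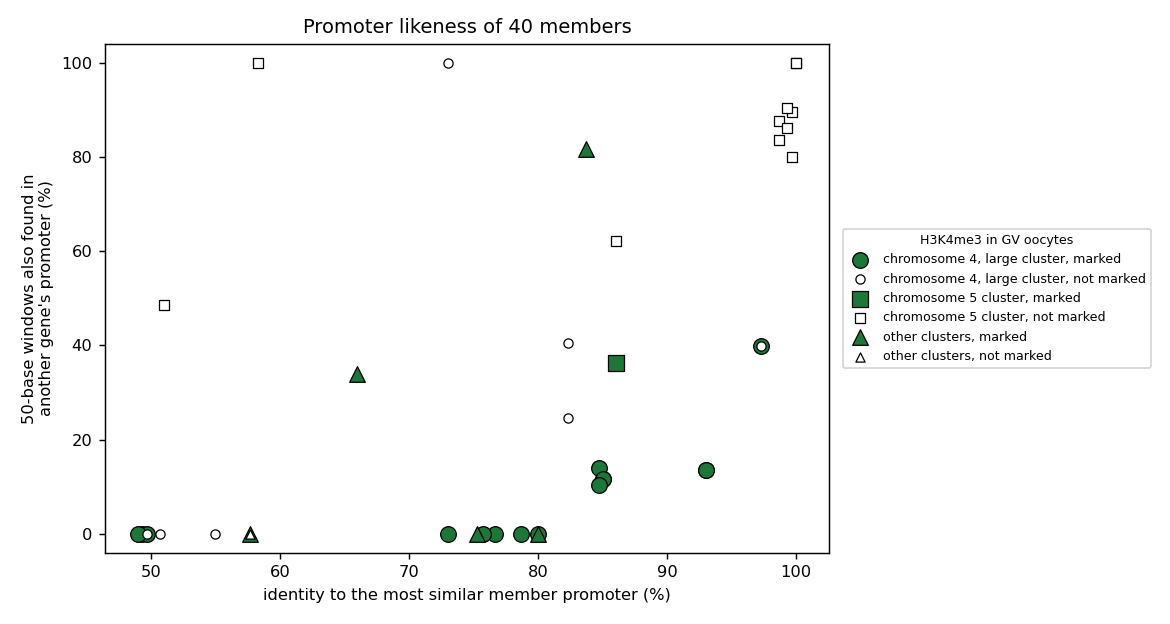
Each of 40 members with a RefSeq promoter, by its identity to the most similar member promoter (%, horizontal) and the share of its 50-base windows found unchanged in any other gene's promoter (%, vertical). Filled symbols are marked by H3K4me3 in GV oocytes and small open ones are not. Squares are the chromosome 5 cluster, and 8 of the 12 lie at the upper right, at 95% identity or more. The single filled square lies at 36.3% of windows. An open symbol inside a filled one shows members with the same values, such as Pramel14 and Pramel30.

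The members marked throughout had the most CpG dinucleotides, the target of DNA methylation, among the promoters at hand. The 40 members with a promoter entry had a median of 1 CpG in 300 bases, against 14 in 16457 autosomal protein-coding promoters, and 95% of members had 5 or fewer, against 31.6% of all. The exceptions were Pramel1 with 20 CpGs and Pramel13 with 7, which are the members with a promoter entry that were marked at all 4 stages. Among the late group, Oog3, Oog2 and Oog1 each had 1 CpG, Pramel26 had 2 and Pramel27 had 0.

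The motifs in capitals above were counted on both strands. CANNTG was found in 37 of 40 member promoters, or 92.5%, against 68.4% of all promoters, and TAATTG in 30% against 7.08%. The form TAATTA occurred in 12.5% against 4.61%, and TATAAA in 35% against 13.5%. By cluster, CANNTG was found in 6 of the 6 clusters with a promoter entry, TAATTG in 3, TAATTA in 1 and TATAAA in 2. Of 12 promoters in the group marked at c34 and in GV oocytes alone, 12 held CANNTG, 7 TAATTG, 1 TAATTA and 5 TATAAA. Of 19 member promoters never marked by H3K4me3, 17 held CANNTG, 4 TAATTG, 4 TAATTA and 8 TATAAA. The E-box letters read alike on both strands: CANNTG matches its own reverse complement, as TAATTA does, so each such site counts once. Related promoters share these letters by descent, so members are not separate observations, and a match is a description, not a binding site. Member promoters also differed from all promoters in CpG count, with a median of 1 against 14. The part of base composition in the motif shares was not tested.

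Other coding genes within the clusters were read in the same lists. In the large chromosome 4 cluster, 0 of 4 other coding genes had H3K4me3 in any list, and 1 of the 4 carried H3K36me3 in E18.5 oocytes. On chromosome 5, 1 of 11 carried H3K4me3 in GV oocytes and 1 carried H3K36me3 in E18.5 oocytes. Between Pramel17 and Pramel19, 1 of 2 other genes carried H3K4me3 at c34 and 1 of 2 in GV oocytes. Both carried H3K27me3 in E18.5 oocytes and in no other list. H3K36me3 covered 1 of the 2 at c13, 1 at c34, 2 in E18.5 oocytes and 2 in GV oocytes.

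Other clustered families give a scale. Of 230 Vmn1r genes, vomeronasal receptors, 3 carried H3K4me3 at c34 and 22 in GV oocytes, and of 122 Vmn2r genes 8 at c34 and 23 in GV oocytes. The shares in GV oocytes were 9.57% and 18.9%, against 53.1% of Prame-like members. H3K36me3 in E18.5 oocytes marked 43.5% of Vmn1r and 32.0% of Vmn2r genes, so the large E18.5 share of this mark was also found outside the Prame-like family. The Obox genes, a homeobox family of oocytes and early embryos, had H3K4me3 at 0 of 6 genes at c13, 3 at c34, 0 in E18.5 oocytes and 3 in GV oocytes. None of these differences was tested.

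Genes for partners and related factors of PRAME-type proteins carried H3K4me3 at nearly every stage. Of 9 such genes, Cul2, Elob, Eloc, Rbx1 and Vhl of the ubiquitin ligase machinery with Uhrf1, Dnmt1, Dnmt3a and Trim28, H3K4me3 marked 8 at c13, 8 at c34, 8 in E18.5 oocytes and 9 in GV oocytes. Most genes did so too, at 72.6%, 67.8%, 62.1% and 75.5% of all genes in the same order. Dnmt1, the maintenance DNA methyltransferase, was the unmarked gene in E18.5 oocytes, and Dnmt3a, which methylates DNA anew in oocytes, at c13 and c34. H3K27me3 marked 3 at c7, 3 at c13, 1 at c34, 1 in E18.5 oocytes and 0 in GV oocytes. The shares of all genes were 46.3%, 62.3%, 44.3%, 38.4% and 28.4%. H3K36me3 covered the bodies of 9 at c13, 9 at c34, 4 in E18.5 oocytes and 9 in GV oocytes. All genes also had their lowest H3K36me3 share in E18.5 oocytes, at 21.4%, against 69.9% at c13, 64.5% at c34 and 63.1% in GV oocytes.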

How the data were processed

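CATCH-seq libraries, 35 by the labels and 9 of them input, are represented by 13 deposited peak lists. The unit of these deposited files is other than counts: per the file headers each row gives the chromosome and the 2 limits of a peak. Lower limits count from 0 and upper ones are inclusive, in steps of 1 kb (H3K4me3) or 10 kb (H3K27me3 and H3K36me3); coordinates here are 1-based. Tools named in the submitters' processing notes are MACS2 2.1.1 and SICER 0.0.41, Bowtie2 2.3.4.1 with SAMtools 1.7, cutadapt 1.9.1 and Trim Galore 0.4.1, deepTools 3.5.0, Picard 2.18.23 and bedtools 2.29.2. Not given in the sources used here are the caller of each list, its thresholds, how repeated sequence was handled and whether libraries were pooled. Depth is unknown, and no interval can be given.

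Genes came from the RefSeq table of GRCm38.p6. A gene was marked by H3K4me3 or H3K27me3 when at least 1 bp of a peak lay within 1 kb of either end, since the gene table gives no strand, and by H3K36me3 from 20% of its body. Promoters of 40 members came from RefSeq; 9 members had no entry. Members and gene lists were chosen with earlier results of these data known. Text names all members of clusters of up to 6, and in larger ones the outermost, Oog1 to Oog4, Pramel1, Pramel13 and up to 10 others with the largest stage differences in 5 kb windows. Pramel11, Pramel14, Pramel20, Pramel23, Pramel30, Pramel37, Pramel46 and Pramel49 were named after their values were seen. Interval arithmetic was tested on simulated data. Python 3.11.15, numpy 2.4.6, pandas 2.3.3 and matplotlib 3.10.9 were used. Alternatives changed windows, body share, peak width, merging, cluster distance and the largest cluster. Input libraries were not used here.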

Additional observations from a re-analysis of the deposited data

How the results depend on the processing

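Of 245 recomputed values under alternative settings, 194 stayed within 1.5 times the reported one, 50 moved further and 1 changed sign. With peaks at or above their list's median width, the H3K36me3 balance of c34 minus GV was 1 member, against -6 with all peaks. That setting also gave c34 minus GV -4 and GV minus E18.5 15 for H3K4me3, c34 minus c13 6 and GV minus E18.5 -17 for H3K36me3, and c34 minus GV 0 and c7 minus E18.5 2 for H3K27me3. Under it c34 H3K27me3 had 0 members, 0 clusters and 0 kb, c13 H3K36me3 3 members, 1 cluster and 116 kb, and GV H3K36me3 8 members, 2 clusters and 323 kb. Without peaks of 1 Mb or more, c13 H3K36me3 had 5 members and 112 kb. With 5 kb windows, c13 minus E18.5 H3K4me3 was 1.

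Leaving out the large chromosome 4 cluster removes 23 members by construction. H3K4me3 then marked 0 members over 0 kb in c13, 6 over 40.4 kb in c34, 0 over 0 kb at E18.5 and 10 over 198 kb in GV oocytes. H3K27me3 marked 3 over 23.7 kb in c7, 0 over 0 kb in c13, 0 over 0 kb in c34 and 2 over 71.9 kb at E18.5. H3K36me3 marked 2 over 53.2 kb in c13, 3 over 100 kb in c34, 9 over 379 kb at E18.5 and 4 over 155 kb in GV oocytes. Counting only clusters with at least 50% of members marked left 0 in c13, 3 in c34 and 0 at E18.5 for H3K4me3, 0 in c13, 0 in c34 and 1 at E18.5 for H3K27me3, and 1 in c13 and 1 in c34 for H3K36me3. The 3 left in c34 for H3K4me3 were the clusters of 1 gene. The cause of the other shifts was not tested. No paired analysis was possible because each stage and mark has a single list, which also allows no replicate to be left out.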

Other observations

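Family genes outside the rule were read in the same lists. The X-linked genes Pramel, Pramel3 and Prame carried no H3K4me3 at an annotated end in any list. H3K27me3 marked all 3 at E18.5 and in GV oocytes, Pramel and Prame also in c34, and Prame also in c7. H3K36me3 covered the body of Pramel in GV oocytes and of none of the 3 in the other lists. Shares over all X-linked genes were not computed, so these counts have no scale beside them. Pramel28, a pseudogene within the large chromosome 4 cluster at chr4:143964129-143966936, had no mark in any of the 13 lists.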
